A study of Homo sapiens with 39 samples.

Results

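The libraries described here came from C4-2B cells that received only DMSO, the solvent used as vehicle, and were collected at day 1 or day 5 of treatment. They are the control arm of an olaparib time course, chosen by their labels alone, and make up 6 of the 39 libraries of the series, with 3 libraries on each day. C4-2B is a castration-resistant prostate cancer line derived from LNCaP that grows in complete serum and still responds to androgen. The time course also holds cultures given 1 µM or 5 µM olaparib, a poly(ADP-ribose) polymerase inhibitor (PARPi), on the same days with 3 libraries each. The comparison asks which transcripts changed between the days without any drug, and the time changes with olaparib are set beside that change below. The labels give a single parental line, and neither a change of medium, the cell density nor a harvest or extraction batch is stated, so days of culture, density, age of the medium and day of harvest cannot be told apart. Nothing states that the 3 libraries of a day came from separate cultures, and p-values then measure only a spread between libraries, which may be technical. That spread was estimated over all 18 libraries of the time course, those with olaparib included. In bulk RNA, a fall in the number of cells that express a gene and a fall in RNA per cell cannot be told apart.

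Cultured cancer cells move through phases that leave a mark on their RNA. Fresh medium and replating briefly switch on immediate early genes, which encode transcription factors and phosphatases that answer growth factors. Dividing cells carry transcripts for DNA replication and mitosis, controlled by E2F factors and by the DREAM complex. In luminal prostate cells, androgen drives a secretory programme that includes KLK3, the gene for prostate-specific antigen, while SREBP factors set the genes of sterol and fatty acid synthesis according to the supply of lipid.

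The 6 libraries held between 35753966 and 44893664 estimated reads. Levels are given as CPM, counts per 1000000 counts of the library after TMM scaling, and 18502 genes had enough reads to be tested. Luminal prostate markers were abundant, with a summed level of 4963 to 5071 CPM at day 1 and 5450 to 5503 CPM at day 5 over 13 genes. Of 7 fibroblast markers 6 were under 1 CPM, with DCN and LUM at 0, and the immune marker CD3E was also at 0. COL1A1, VWF and CD68, markers of fibroblasts, endothelium and macrophages, were measured at 11.6 to 12.5, 10.2 to 11.3 and 4.94 to 6.35 CPM over the 6 libraries. The summed levels of fibroblast, endothelial and immune markers overlapped between the days.

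Between day 1 and day 5, many genes moved a little and few moved a lot. Of the 18502 genes, 4536 passed an adjusted p under 0.05 in edgeR's quasi-likelihood test (24.5%), with 2055 higher at day 5 (11.1%) and 2481 lower (13.4%). The median absolute log2 fold change of these genes was 0.18, a 1.13-fold difference, against a median standard error of 0.047 for genes with at least 1 CPM. Only 147 genes (0.795%) also differed by at least 2-fold, 66 higher and 81 lower, and 19 of these had 100 counts or more in the higher day. The count of 147 became 28 when genes had to reach a mean of 1 CPM, 62 with DESeq2 and 241 with no filter. Scaling by total counts in place of TMM moved the share of higher genes among those called from 45.3% to 57.7%. The share of genes called rose with their level, from 4.7% under 1 CPM to 46.8% at 100 CPM or more.

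**Figure D1:**
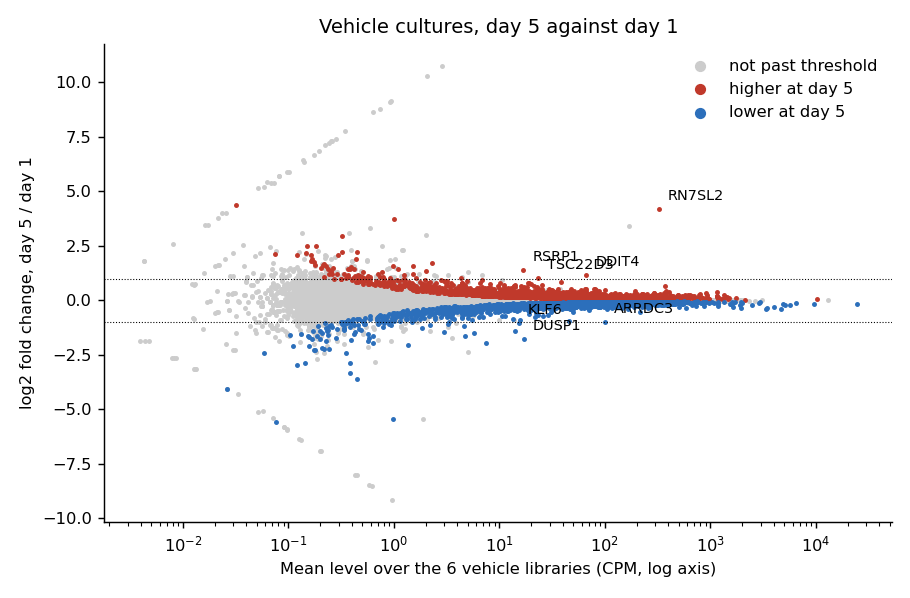
Mean level over the 6 vehicle libraries (CPM, log axis) against the log2 fold change of day 5 over day 1, with 1 point per tested gene. Genes past the threshold are red where higher at day 5 and blue where lower, dotted lines mark a 2-fold difference, and most coloured points at high levels lie well inside those lines.

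Distances between whole libraries gave the same scale. On variance-stabilised values, libraries of the same day lay 37.7 to 41.6 apart, and libraries of different days 44.6 ± 1.63 (SD over pairs that share libraries), 1.12 times the mean within a day. The matching ratio was 1.40 for 1 µM olaparib and 2.03 for 5 µM.

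Several of the larger falls were among immediate early genes, which are induced within minutes to hours of stimulation. Of 15 tested members of that list, 8 fell and 1 rose (60% called, beside 24.5% of all genes), with a median log2 fold change of -0.24 against -0.0027 over all tested genes. DUSP1 (chr5:172768096-172771195, minus strand), a phosphatase that switches off MAP kinases, stood at 25.9, 27.5 and 25.8 CPM at day 1 and at 8.31, 7.23 and 7.28 CPM at day 5. The days did not overlap, as in 36.7% of all tested genes and as the rule for naming the largest changes required, and the log2 fold change was -1.79 ± 0.060 (SE, adjusted p = 2.57e-22). KLF6, a zinc finger transcription factor, read 21.6, 20.8 and 19.9 CPM at day 1 and 10.2, 9.80 and 9.83 CPM at day 5, also without overlap (log2 fold change -1.06 ± 0.062). KLF10, a factor induced by TGF-beta, had a log2 fold change of -0.68 ± 0.050. FOS, a subunit of AP-1, had fewer than 100 counts and was picked out after its values were seen, with levels of 2.47, 2.36 and 1.79 CPM at day 1 and 0.551, 0.487 and 0.566 CPM at day 5. Its log2 fold change of -2.04 ± 0.18 was larger than that of DUSP1.

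The DUSP1 promoter is shown because DUSP1 fell most among the immediate early genes that reached 100 counts on average at either day, and its promoter holds a cyclic AMP response element. The 250 bases before the RefSeq start (GRCh38.p14, chr5:172771196-172771445, minus strand) read as follows, with the element TGACGTCA in capitals.
DUSP1: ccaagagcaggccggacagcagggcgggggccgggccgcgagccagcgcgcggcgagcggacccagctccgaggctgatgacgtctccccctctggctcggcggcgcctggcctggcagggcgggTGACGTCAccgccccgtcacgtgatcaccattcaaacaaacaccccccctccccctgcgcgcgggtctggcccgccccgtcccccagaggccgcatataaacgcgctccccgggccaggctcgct
The letters TGACGTCA, searched on both strands from 250 bases before to 50 after each start, were present in 2 of 13 promoters of this list found in the table and in 1.98% of all 27305 promoters. A match is a description of the letters and says nothing about binding.

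ID1 and ID2, inhibitor of DNA binding genes that are targets of BMP signalling and hold back differentiation, also fell. In the list of BMP and TGF-beta targets 6 of 9 tested genes fell, where 13.4% of all genes did, and none rose, with a median log2 fold change of -0.33. ID1 stood at 63.2, 62.8 and 56.2 CPM at day 1 and at 30.8, 31.8 and 31.1 CPM at day 5. Every day 5 library was below every day 1 library, and the log2 fold change was -0.96 ± 0.044 (adjusted p = 9.68e-15). BAMBI, a decoy receptor that dampens the pathway, changed by -0.86 ± 0.057 and ID2 by -0.77 ± 0.052 on the log2 scale.

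Other steep falls lay outside these lists. PPP1R15A, the phosphatase subunit that reverses the integrated stress response, had a log2 fold change of -1.18 ± 0.11. TNFAIP3, which restrains NF-kB, had one of -1.28 ± 0.17. ARRDC3, an arrestin-like adaptor, was far more abundant and went from 144, 128 and 126 CPM to 66.1, 69.2 and 65.6 CPM without overlap. Linker histone genes H1-4 and H1-5 had log2 fold changes of -1.62 ± 0.11 and -1.13 ± 0.18. Over the 46 tested clustered histone genes 6 fell and 2 rose (17.4%), a smaller share than the 24.5% of all genes, and gene estimates within this family are uncertain because its members are near-identical.

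Among the genes that rose, DDIT4 (chr10:72273919-72276036, plus strand), an inhibitor of mTORC1 induced by stress and glucocorticoids, more than doubled. Its levels were 41.7, 40.8 and 40.3 CPM at day 1 and 86.7, 93.7 and 96.2 CPM at day 5, with no overlap. The log2 fold change was 1.17 ± 0.040 (adjusted p = 4.96e-18). TSC22D3, the glucocorticoid-induced leucine zipper, rose from 15.6, 14.4 and 16.4 CPM to 28.6, 33.9 and 31.2 CPM, again without overlap.

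RSRP1, an arginine and serine rich protein, and CLK1, a kinase of splicing factors, also rose. RSRP1 read 8.78, 9.25 and 9.62 CPM at day 1 and 24.7, 25.6 and 22.6 CPM at day 5, a log2 fold change of 1.40 ± 0.071 with no overlap between the days. CLK1 had a log2 fold change of 0.82 ± 0.058. The highest fold among the named genes belonged to RN7SL2, an RNA of the signal recognition particle with near-identical copies, at 61.1, 21.0 and 20.3 CPM at day 1 and 484, 831 and 536 CPM at day 5. Its adjusted p was 0.037, and the call was lost with no filter on low counts, with a replicate block and on leaving out each of the 6 libraries in turn.

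**Figure D2:**
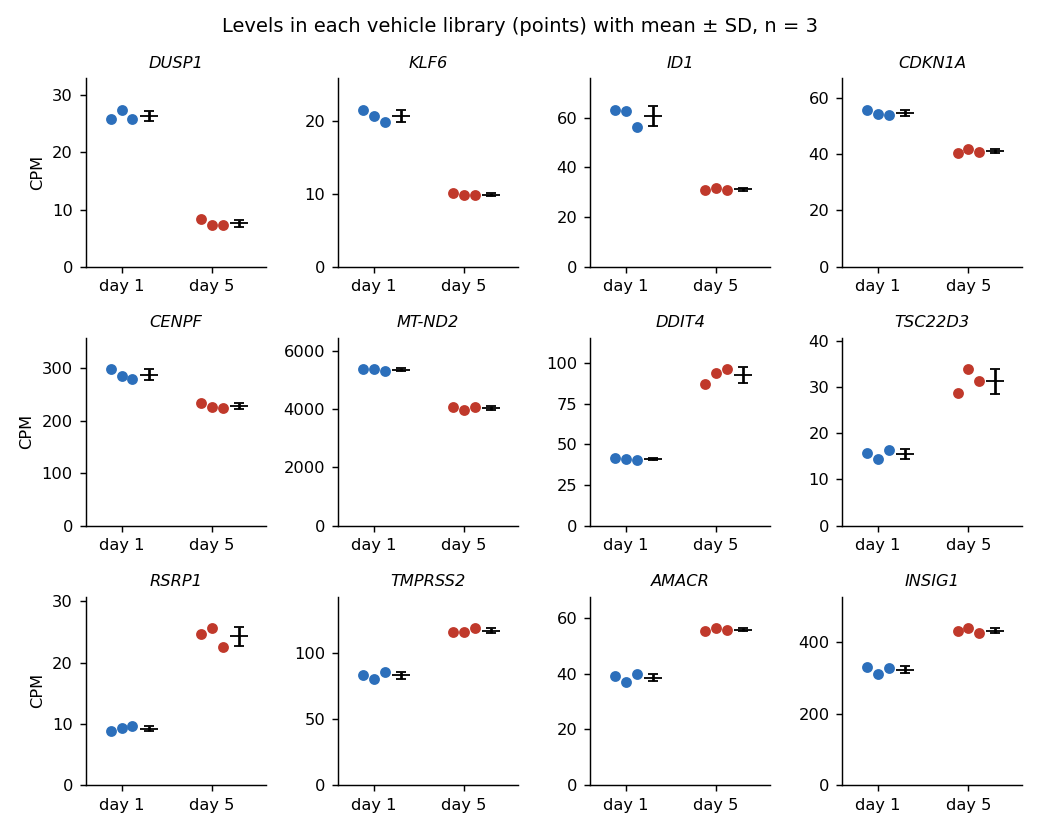
Levels of 12 genes in each of the 3 day 1 (blue) and 3 day 5 (red) vehicle libraries in CPM on axes that start at 0, with the mean ± SD in black. The top row and the first 2 genes of the middle row were lower at day 5, the others were higher, and no gene shown had overlapping days, which the naming rule required of the largest rises and falls and which held for 36.7% of all tested genes.

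Genes of the cell cycle were lower at day 5 by small amounts. In the mitosis list 37 of 40 tested genes fell and none rose, with a median log2 fold change of -0.20. In the list for DNA replication and S phase 33 of 44 fell and 1 rose, with a median of -0.12. Of all tested genes 13.4% fell, and of those at 100 CPM or more 46.8% were called in either direction. CENPF, a kinetochore protein, stood at 299, 286 and 280 CPM at day 1 and at 235, 227 and 224 CPM at day 5, with no overlap (log2 fold change -0.33 ± 0.038). TPX2, a spindle assembly factor, changed by -0.30 ± 0.024 and ORC6, a subunit of the origin recognition complex, by -0.25 ± 0.055.

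Promoters of both lists are shown for the member with the largest change that holds its list's element in the 250 bases before the start. BUB1B, a spindle checkpoint kinase with a log2 fold change of -0.27 ± 0.033, holds a cell cycle homology region, TTTGAA, ending 17 bases before the start (GRCh38.p14, chr15:40160819-40161068, plus strand). POLA1, the catalytic subunit of DNA polymerase alpha with a log2 fold change of -0.23 ± 0.030, holds an E2F site (chrX:24693668-24693917, plus strand). The elements are in capitals.
BUB1B: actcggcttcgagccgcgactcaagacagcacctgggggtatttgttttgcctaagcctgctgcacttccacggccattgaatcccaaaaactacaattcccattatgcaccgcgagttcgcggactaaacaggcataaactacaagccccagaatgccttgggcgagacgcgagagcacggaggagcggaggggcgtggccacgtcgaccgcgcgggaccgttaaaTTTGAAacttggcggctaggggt
POLA1: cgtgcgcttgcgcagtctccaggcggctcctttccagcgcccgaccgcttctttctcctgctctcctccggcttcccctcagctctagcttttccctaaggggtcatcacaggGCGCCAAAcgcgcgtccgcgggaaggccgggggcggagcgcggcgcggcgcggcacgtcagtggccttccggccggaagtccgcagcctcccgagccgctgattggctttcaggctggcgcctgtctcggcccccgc
TTTGAA on either strand was present in 23 of 33 promoters of the mitosis list (69.7%) and in 15.4% of all promoters. The E2F spellings TTTCCCGC, TTTGGCGC, TTTCGCGC and TTTGCCGC were present in 22 of 38 promoters of the S phase list (57.9%) and in 3.33% of all.

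Of 16 tested CDK inhibitors, D cyclins and genes that slow the cycle 3 rose and 4 fell. CDKN1A, the p21 inhibitor of cyclin-dependent kinases, stood at 55.8, 54.3 and 53.9 CPM at day 1 and at 40.4, 41.95 and 41.0 CPM at day 5. It was lower in every day 5 library (log2 fold change -0.41 ± 0.027). Of 29 tested p53 targets 13 fell and 4 rose, with GADD45A, a DNA damage sensor, at -0.63 ± 0.072. In the homologous recombination list 13 of 26 fell and 1 rose. The shares of all tested genes were 11.1% higher and 13.4% lower. BRCA1 and BRCA2, which act in the repair of broken DNA, had log2 fold changes of -0.24 ± 0.030 and -0.13 ± 0.031, and PARP1, the main target of olaparib, had one of -0.11 ± 0.017.

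Most genes of the androgen response rose. Of 61 tested genes of the androgen response 39 rose and 2 fell, where 11.1% of all genes rose and 13.4% fell, with a median log2 fold change of 0.16. TMPRSS2, a surface protease induced by androgen, read 83.0, 80.3 and 85.8 CPM at day 1 and 116, 116 and 119 CPM at day 5, without overlap (log2 fold change 0.49 ± 0.027). KLK3 read 1024, 1074 and 1101 CPM at day 1 and 1248, 1255 and 1232 CPM at day 5, also without overlap (0.22 ± 0.022). STEAP4, a metalloreductase, and ALDH1A3, a retinaldehyde dehydrogenase, rose further, by 0.79 ± 0.092 and 0.66 ± 0.041 on the log2 scale. FKBP5, a co-chaperone of HSP90, rose by 0.23 ± 0.018.

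In the list of genes repressed by androgen 2 of 4 tested genes fell and none rose, beside 13.4% lower and 11.1% higher over all genes. UGT2B15, an enzyme that glucuronidates androgens and is repressed by them, had a log2 fold change of -0.54 ± 0.046.

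Most tested genes of lipid synthesis rose. In cholesterol synthesis and uptake 18 of 24 tested genes rose and none fell, and in fatty acid synthesis 10 of 13 rose and 1 fell, beside 11.1% higher and 13.4% lower over all genes. INSIG1, which holds SREBP in the endoplasmic reticulum, stood at 332, 312 and 327 CPM at day 1 and at 433, 440 and 426 CPM at day 5, without overlap (log2 fold change 0.42 ± 0.023). SCD, the stearoyl-CoA desaturase, went from 1023, 966 and 1009 CPM to 1288, 1316 and 1314 CPM. SREBF1, the gene for SREBP1, rose by 0.33 ± 0.023 on the log2 scale. The sterol element TCACNCCAC was present in 1 of 18 promoters of the cholesterol list (5.56%) and in 1.15% of all.

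In fatty acid oxidation 12 of 24 tested genes rose, none fell and 12 did not pass the test, with a median log2 fold change of 0.089. Of 6 tested LXR targets, which export and remodel lipids, 2 rose and 1 fell. Over all tested genes 11.1% rose and 13.4% fell. AMACR, a racemase of branched fatty acids, read 39.1, 37.2 and 39.8 CPM at day 1 and 55.4, 56.5 and 55.6 CPM at day 5. The days did not overlap, and the log2 fold change was 0.53 ± 0.033 (adjusted p = 9.68e-15). CPT1A, the carnitine transferase of mitochondrial import, had a log2 fold change of 0.27 ± 0.042.

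Amino acid and stress genes were mixed, in lists read against 11.1% of all genes higher and 13.4% lower. Of 29 tested ATF4 targets 15 rose and 3 fell, GDF15, a stress cytokine, being among those that fell (-0.35 ± 0.052). The ATF4 element TGATGNAAT was in 0 of 24 promoters of this list and in 1.02% of all. Cytosolic heat shock genes fell in 8 of 14 cases and rose in 2, with HSPA8, the constitutive HSP70, at 2744, 2649 and 2651 CPM at day 1 and 2302, 2325 and 2313 CPM at day 5. In glycolysis 12 of 19 genes fell and 2 rose, but the 14 calls went to 8 with total count scaling and to 7 with no filter.

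Transcripts of the mitochondrial genome fell from 9.24% ± 0.037 to 8.29% ± 0.080 of all reads (SD, n = 3), with no overlap between the days. The exact two-sided permutation p was 0.1, the smallest that 3 against 3 libraries allow. Of 13 protein-coding mitochondrial genes 10 fell and none rose. MT-ND2, a subunit of complex I, stood at 5376, 5382 and 5297 CPM at day 1 and at 4090, 3963 and 4092 CPM at day 5. MT-CO1, a subunit of complex IV chosen after its values were seen, overlapped between the days (log2 fold change 0.028 ± 0.032, adjusted p = 0.593). Of 75 nuclear genes of the respiratory chain 4 rose and 4 fell, a share of calls below the 24.5% of all genes.

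Ribosome biogenesis genes fell in 20 of 34 cases and rose in 2, while of 79 ribosomal protein genes 5 rose and 3 fell (10.1%, beside 24.5% of all genes). LYAR, a nucleolar protein, had a log2 fold change of -0.26 ± 0.033. In the circadian clock list 9 of 19 genes fell and 1 rose, and PER1, a repressor of the clock, changed by -0.46 ± 0.052. The 10 clock calls went to 6 without replicate 1 of day 5. The autophagy and lysosome list had 9 genes higher and 4 lower of 36 (36.1%, beside 24.5% of all genes), and its 13 calls went to 8 without replicate 1 of day 1. WIPI1, a protein of the early autophagosome, rose by 0.55 ± 0.046 on the log2 scale.

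**Figure D3:**
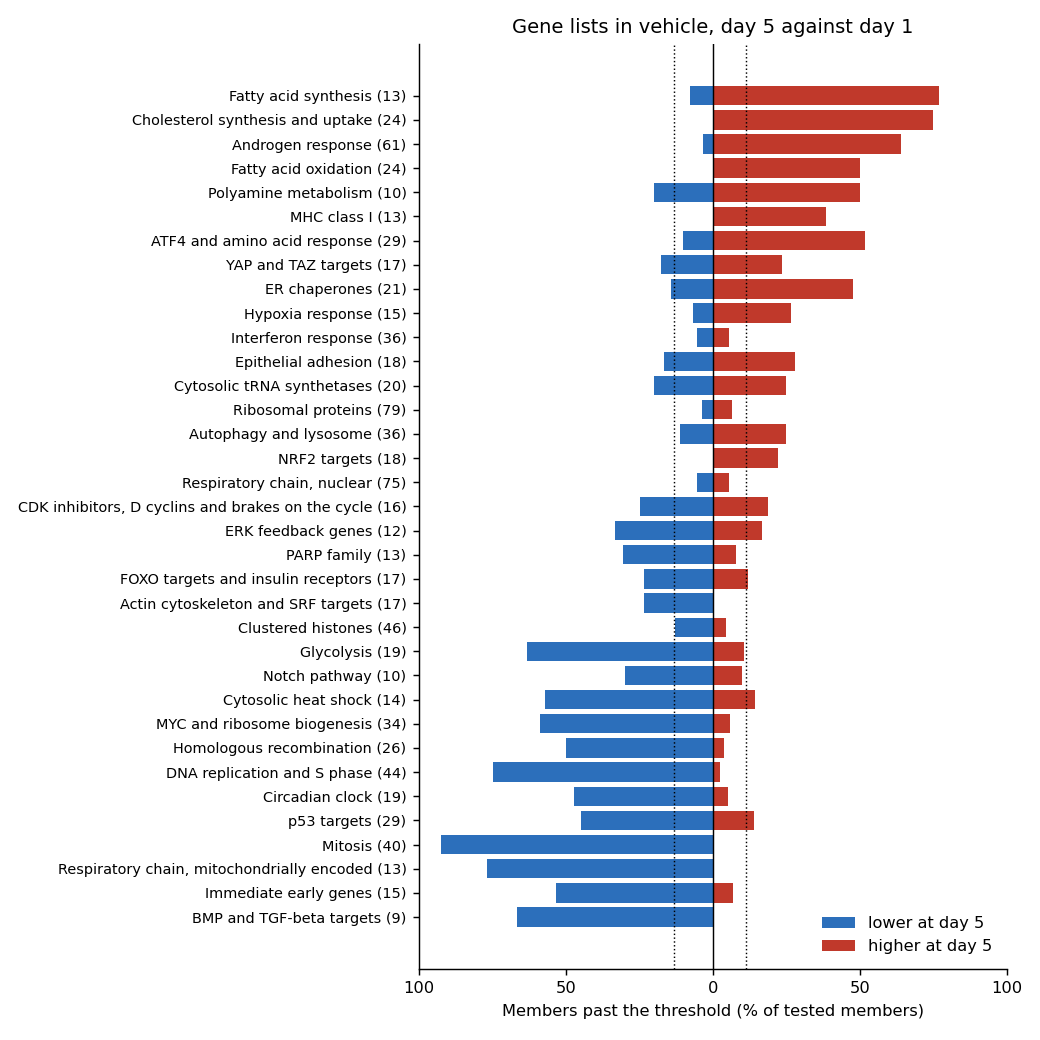
Share of the tested members of each gene list (number tested in brackets) that were higher (red, right) or lower (blue, left) at day 5 in vehicle, ordered by the median log2 fold change, with dotted lines at the shares of all tested genes, 11.1% higher and 13.4% lower. The bars for mitosis, S phase and mitochondrially encoded genes reach farthest left, and those for fatty acid synthesis, cholesterol and androgen response farthest right.

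The remaining lists were mixed in direction or held few calls. Interferon response genes had 2 higher and 2 lower of 36 tested, a share of 11.1% beside the 24.5% of all genes. Endoplasmic reticulum chaperones had 10 higher and 3 lower of 21, and HERPUD1, a factor of protein degradation there, changed by -0.43 ± 0.029 on the log2 scale. ERK feedback genes had 2 higher and 4 lower of 12, with DUSP4, a phosphatase of MAP kinases, at -0.68 ± 0.040. YAP and TAZ targets had 4 higher and 3 lower of 17, with CCN1, a matricellular protein, at -0.91 ± 0.10. Of 13 neuroendocrine and neuronal genes only 3 had enough reads to be tested. Epithelial adhesion genes had 5 higher and 3 lower of 18 (44.4%), with KRT8, a luminal keratin, at 0.16 ± 0.023 on the log2 scale.

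The same days were then compared in the olaparib cultures, which share no library with the vehicle cultures. With 1 µM olaparib 9421 genes passed the threshold between the days (50.9%), and with 5 µM 12293 (66.4%). Of the 4536 vehicle genes, 3481 were also called with 1 µM (76.7% of the vehicle genes and 36.9% of the olaparib genes), 3103 of them in the same direction. With 5 µM the overlap was 3704 genes (81.7% and 30.1%), 2839 of them in the same direction. In all 3 kinds of culture 2625 genes moved the same way, 57.9% of the vehicle genes.

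The difference between the time changes was tested as an interaction. It passed the threshold for 5510 genes with 1 µM (29.8%) and for 10156 with 5 µM (54.9%). Mitosis genes had median log2 fold changes of -0.20 in vehicle, -0.70 with 1 µM and -2.22 with 5 µM, and all 40 had a lower time change with either dose than in vehicle by that test. Androgen response genes had medians of 0.16, 0.57 and 0.70, and by that test 46 of 61 had a higher time change than in vehicle with 1 µM and 3 a lower one, against 39 higher and 11 lower with 5 µM.

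Some groups and genes went another way in vehicle than with at least 1 dose. ATF4 targets had a median of 0.067 in vehicle and of -0.61 and -0.69 with the doses of olaparib. ID1 fell in vehicle (-0.96) and with 1 µM (-0.43) and rose with 5 µM (0.55), where the interaction was 1.51 (adjusted p = 1.11e-17). CDKN1A fell in vehicle (-0.41) and had a log2 time change of 0.18 with 1 µM, an interaction of 0.60 (adjusted p = 4.26e-16). With 5 µM its time change of 0.028 did not pass the threshold (adjusted p = 0.252), and the interaction of 0.44 did (adjusted p = 1.12e-13). Its mean levels at day 1 and day 5 were 54.7 and 41.1 CPM in vehicle. They were 199.2 and 226.5 CPM with 1 µM, and 716.6 and 730.7 CPM with 5 µM. TSC22D3 had log2 time changes of 1.01 in vehicle, 1.08 with 1 µM and 0.91 with 5 µM, and its interactions did not pass the threshold (adjusted p = 0.605 and 0.353).

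**Figure D4:**
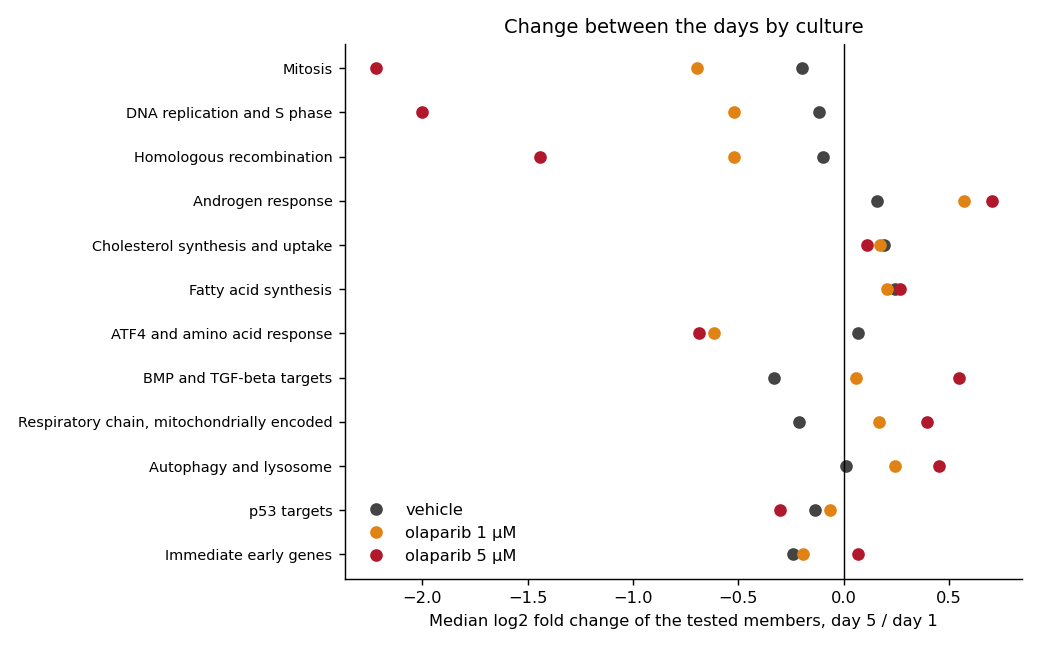
Median log2 fold change of day 5 over day 1 for the tested members of 12 gene lists in vehicle (grey), 1 µM olaparib (orange) and 5 µM olaparib (red). Vehicle medians lie between -0.33 and 0.24, and those of mitosis and S phase reach -2.22 and -2.0 with 5 µM.

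A separate drug panel in the series holds 3 more vehicle libraries of C4-2B cells, collected at day 5. In a joint scaling of these 9 libraries, the panel mean lay nearer to day 5 than to day 1 of the time course, on the log2 scale, for 2956 of the 4536 called genes (65.2%). Among called genes with a symbol, at least 100 counts and no overlap, 5 of the 10 largest rises and 3 of the 10 largest falls were nearer to day 5. DUSP1 stood at 11.1, 10.4 and 9.38 CPM in the panel, against means of 26.3 CPM at day 1 and 7.60 CPM at day 5 of the time course. INSIG1 stood at 415, 410.3 and 413 CPM, beside means of 322 and 432 CPM. In contrast, ARRDC3 stood at 128, 119 and 104 CPM, beside 132 and 66.8 CPM, and MT-ND2 at 5352, 5497 and 5154 CPM, beside 5332 and 4042 CPM. DDIT4 stood at 56.5, 49.5 and 47.5 CPM, beside 40.8 and 92.1 CPM. The experiment and the day cannot be told apart in this comparison, since the panel has no day 1.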

How the data were processed

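RNA of C4-2B cells was sequenced from a stranded library. Per the labels and the study's methods, reads were trimmed with Trim Galore, aligned with STAR to GRCh38 and quantified with Salmon, and the authors deposited estimated counts per gene, all whole numbers. Gene names came from a GENCODE annotation and promoters from RefSeq (GRCh38.p14), with 62666 of 63187 gene IDs matched. The 18 libraries of the time course entered 1 fit in edgeR 4.0.16 (R 4.3.3) with TMM scaling, its filter on low counts and the robust quasi-likelihood test, with Benjamini-Hochberg adjustment over 18502 genes and a threshold of 0.05. DESeq2 1.42.0, other scalings and filters, a replicate block and the removal of each library were alternatives. The fit was tested on simulated data. A first criterion on the share of all changed genes recovered was not met, because most missed genes had low counts, and was then replaced by one on genes with more counts, on bias and on false calls. Named genes were the 10 largest rises and falls among called genes with a symbol, at least 100 counts and no overlap. Added to these were up to 3 called genes per list, preset genes, the largest changes in CPM and the largest interactions. Interactions were ranked among genes with a symbol and at least 100 counts in the higher vehicle day. Some genes that this rule names are not reported here. Members and lists were chosen with earlier results of these data known. Counting error alone understates the spread, as replicates differed by 2.21 to 3.34 times Poisson variance.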

Additional observations from a re-analysis of the deposited data

Results flagged for a closer look

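The change between the days differed between vehicle and olaparib cultures, by a test of the difference itself, for 5510 genes with 1 µM and for 10156 with 5 µM. The values that follow are log2 time changes with olaparib minus those in vehicle. They were ranked only among genes with a symbol that averaged 100 counts or more on either vehicle day. Genes scarcer in vehicle were left out of the ranking, such as KRT14, a basal prostate marker, at 1.91 with 1 µM. With 1 µM the largest positive differences were 2.07 for GPNMB, a lysosomal glycoprotein, 2.03 for THBS1, a matrix protein, and 1.85 for TRIM49D2, which has near-identical copies. The largest negative ones were -2.43 for CHAC1, an ATF4 target that degrades glutathione, -1.97 for LINC01133 and -1.88 for NIBAN1. With 5 µM they were 3.56 for GPNMB, 3.27 for THBS1 and 3.12 for SOX9, a transcription factor. The negative ones were -7.94 ± 1.95 (SE) for RN7SL2, -6.88 ± 1.78 for RN7SL1 and -3.91 for CA8. The RN7SL values rest on replicate 3 of 5 µM at day 1, where RN7SL2 read 733 CPM beside 14.5 and 8.44 CPM in the other libraries of that group. Without it the differences were -3.51 and -2.67 and no longer passed the threshold (edgeR, adjusted p = 0.0805 and 0.0932), and the time changes with 5 µM turned from -3.74 and -3.45 to 0.70 and 0.75. In vehicle, GPNMB, LINC01133, SOX9, RN7SL1 and CA8 did not pass the threshold.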

How the results depend on the processing

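The count of genes past the threshold stayed within 1.5 times 4536 under every alternative run, from 3689 to 3848 on leaving out 1 vehicle library and 4209 with DESeq2. With DESeq2, 4017 of the 4536 genes were called again in the same direction. The count of genes with a 2-fold difference, 147, was 241 with no filter, 28 with a mean of at least 1 CPM and 62 with DESeq2. Calls in glycolysis, 14, were 8 with total count scaling and 7 with no filter. The 13 calls in autophagy and lysosome and the 10 in the circadian clock fell to 8 and 6 on leaving out 1 library. Over all lists and alternatives, 21 counts of calls moved by more than 1.5 times and 553 did not, and not all that moved are named here. The 10 calls among mitochondrially encoded genes were 0 when those genes were removed before scaling, by construction, an alternative chosen after seeing the data. The ratio of distances was 1.12, and 1.06 on log2 CPM, and the cause was not tested. Replicate numbers did not pair the samples (correlations of deviations 0.063, -0.0026 and -0.12), and a replicate block gave 4455 calls. No vehicle fold change of the named largest rises and falls or of the preset genes changed sign under these alternatives, nor did a named interaction. RN7SL2, RN7SL1 and SNHG25 lost calls in some. Other named genes, from lists or chosen after their values were seen, were not followed singly. The 5 µM time changes of RN7SL2 and RN7SL1 did change sign, from -3.74 to 0.70 and from -3.45 to 0.75, without replicate 3 of 5 µM at day 1. The median log2 fold change of all genes was -0.0027 with TMM, -0.0090 with RLE and 0.019 with total count scaling. Low counts limit what can be said of genes under 1 CPM, where the median standard error was 0.374.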

Other observations

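Zinc finger genes, a family examined after its members appeared among the largest rises, had 103 higher and 46 lower of 439 tested (33.9% called, beside 24.5% of all genes), with a median log2 fold change of 0.060. ZNF460 and ZNF284 had log2 fold changes of 1.02 ± 0.26 and 0.92 ± 0.15. Serine and arginine rich splicing factors and CLK kinases, also examined after their values were seen, had 5 higher and 5 lower of 16. The nuclear RNA MALAT1, picked out in the same way, read 2222, 2132 and 2193 CPM at day 1 and 1785, 1770 and 1649 CPM at day 5. In polyamine metabolism 5 of 10 tested genes rose and 2 fell (70% called, beside 24.5% of all genes), and SAT1, which acetylates spermidine and spermine, rose by 0.49 ± 0.031 on the log2 scale. In the MHC class I list 5 of 13 genes rose and none fell (38.5% called), with B2M, the light chain, at 0.18 ± 0.028.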
